A study of Rattus norvegicus with 46 samples.

Results

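The antioxidant and glutathione enzymes of the rat heart were followed across 5 ways of inducing cardiac hypertrophy and in the neonatal ventricle. Members were the genes of the deposited table whose probe sets are annotated to a single symbol that begins with Gst, Gpx, Prdx, Txn or Sod, or that is Cat, Hmox1, Hmox2, Gclc, Gclm, Gsr or Gss. This gave 39 genes of the 4736 that have a probe set with 1 symbol. They comprise 12 glutathione S-transferases (Gst), 7 glutathione peroxidases (Gpx), 4 peroxiredoxins (Prdx), 6 genes of the thioredoxin group (Txn), 3 superoxide dismutases (Sod) and the 7 single genes. The 39 genes carry 74 probe sets, 13 genes having 1 and 26 having several, and each gene is given by its probe set with the highest mean over all arrays. The cytosolic thioredoxin gene Txn1 was not analysed here.

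RNA from the left ventricle of male Wistar rats was hybridised to 46 Affymetrix RGU34A arrays, and each array held RNA pooled from several animals, so p-values reflect how pools, not single animals, vary. Hypertrophy followed banding of the ascending aorta with a clip for 6, 12 or 16 weeks (2 arrays each) or 30 weeks (4 arrays), or myocardial infarction by coronary ligation for 3 or 9 weeks (4 arrays each). The other groups had an aortocaval shunt for 3 or 8 weeks, or 2 weeks of angiotensin II or of the thyroid hormone analogue Ditpa (2 arrays each). Each surgical time point had its own 2 sham arrays, angiotensin II and Ditpa shared 2 vehicle arrays, and 2 arrays held ventricles of untreated neonatal rats. In the infarction groups only hearts with large transmural infarcts entered, and the scar was cut away before RNA was taken, so those arrays show the surviving wall. No genotype differed between the groups.

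Superoxide dismutases turn superoxide into hydrogen peroxide, which catalase, glutathione peroxidases and peroxiredoxins then reduce. Glutathione peroxidases draw on glutathione, made by glutamate-cysteine ligase (catalytic subunit Gclc, modifier subunit Gclm) and glutathione synthetase (Gss) and recycled by glutathione reductase (Gsr). Most peroxiredoxins, though not Prdx6, draw on thioredoxin, which thioredoxin reductase recharges. Glutathione S-transferases join glutathione to reactive compounds, and many of these genes carry an antioxidant response element, the sequence bound by the transcription factor Nrf2.

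The core of that element, TGACNNNGC, was looked for on both strands of each gene's promoter window, 250 bases before to 50 bases after the annotated start, in the RefSeq annotation of the rat build GRCr8. A window was held for 32 of the 39 genes. The core was found in 12 of these 32 (37.5%), against 3602 of all 27457 genes with a window (13.1%), which describes the letters and says nothing about binding. Of the 12 genes, 9 were called in at least 1 comparison described here, as were 21 of all 39 members. In the neonatal comparison alone 32.6% of all probe sets were called. Gstp1, Hmox2 and Txnl4b hold the core too and were called in none. In 8 of the called genes the core lies before the annotated start. Those stretches are printed 5′ to 3′ on the strand of the gene, with the core in capitals (reversed and complemented where it lies on the other strand). They were picked because they hold the core, so the letters they share were fixed by that choice. In Gsta1 the core lies after the start.
Gclm, chr2:213031937-213031996, plus strand: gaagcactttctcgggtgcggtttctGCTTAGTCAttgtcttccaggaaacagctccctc
Prdx1, chr5:135383745-135383804, plus strand: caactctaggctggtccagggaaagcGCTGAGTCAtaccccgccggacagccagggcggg
Gstm5, chr2:198219630-198219689, plus strand: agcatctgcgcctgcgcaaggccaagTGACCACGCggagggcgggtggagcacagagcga
Gstm5 (second match), chr2:198219690-198219749, plus strand: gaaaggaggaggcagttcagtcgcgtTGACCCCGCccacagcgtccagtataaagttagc
Sod2, chr1:50050170-50050229, minus strand: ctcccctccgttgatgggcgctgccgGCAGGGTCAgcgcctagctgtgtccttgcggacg
Gsta3, chr9:31154946-31154988, plus strand: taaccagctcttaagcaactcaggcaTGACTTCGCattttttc
Gpx2, chr6:101230034-101230072, minus strand: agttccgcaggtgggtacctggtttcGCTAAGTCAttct
Gstm7, chr2:198260320-198260359, minus strand: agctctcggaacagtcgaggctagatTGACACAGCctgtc
Txnrd1, chr7:22755949-22756008, minus strand: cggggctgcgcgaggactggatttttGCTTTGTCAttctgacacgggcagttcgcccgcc
Txnrd1 and Gsta3 have 2 annotated starts each, and only 1 of the windows held the core. Gclm, Prdx1 and Gstm5 stood higher in the neonatal ventricle, Sod2, Gsta3, Gpx2 and Gstm7 lower, and Txnrd1 stood higher on average in hypertrophy. Among the 20 genes whose window held no match, 2 were called higher and 6 lower in the neonatal ventricle, against 3 and 5 of the 12 with a match.

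Values are model-based intensities in arbitrary units, which compare arrays for 1 probe set but not 1 gene with another. An effect is a log2 difference between group means, given ± SE from a limma fit of all 20 groups, and a gene counted as called at a Benjamini-Hochberg adjusted p below 0.05 over all 8740 probe sets. The median intensity was alike on all arrays, from 1002.6 to 1084.4, but the bright end was not. The brightest probe set reached 22581 to 23633 on the 4 hormone-treated arrays and 24526 to 30195 on the neonatal arrays, against 27718 to 64884 elsewhere. Effects of some bright members in those groups are therefore also given after quantile normalization, which gives every array the same spread of values. With so few arrays, many probe sets lay wholly above or wholly below their controls. At 6, 12, 16 and 30 weeks of banding 36.1%, 20%, 50.9% and 20.6% of all probe sets did. In infarction at 3 and 9 weeks 17.3% and 20.1% did, and in the shunt at 3 and 8 weeks 35% and 45%. For angiotensin II and Ditpa the shares were 37.8% and 33%.

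In the hypertrophic groups 7 of the 39 genes were called in some comparison with controls, and 32 in none. Averaged with equal weight over the 10 treated groups, 3 members rose (Gpx3, Txnrd1, Sod3) and 2 fell (Txn2, Txnip), or 5 of 39, where 5.21% of all probe sets were called (3.64% higher, 1.57% lower). The median effect of the members was 0.02, against 0.01 over all probe sets. Pooling the 4 banding times gave 5 calls, with Gpx3 higher and Txn2, Txnip, Gstm2 and Gstm7 lower, where 5.26% of all probe sets were called (3.28% higher, 1.98% lower). Pooling both infarction times gave 2, Gpx3 and Sod3, both higher, where 1.96% were called (1.7% higher, 0.252% lower).

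**Figure D1:**
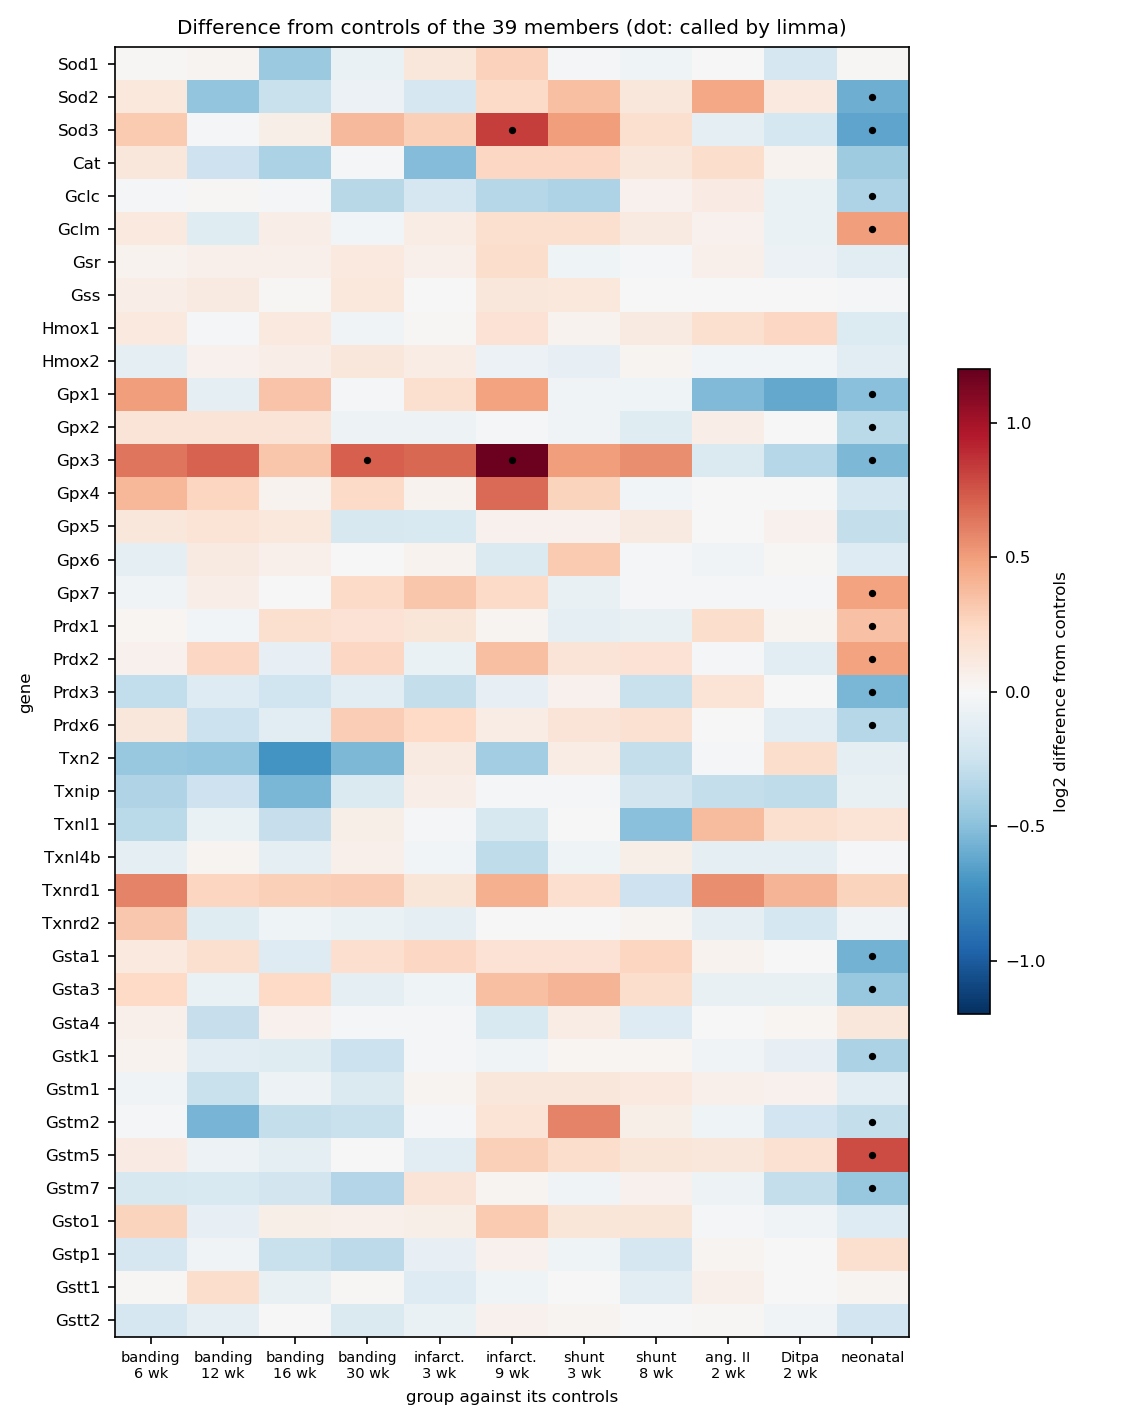
Log2 difference from controls (colour, white at 0) of the 39 members (lines) in the 10 treated groups, each against its own controls, and in the neonatal ventricle against the adult controls (columns). A dot marks a limma adjusted p below 0.05: there are 3 dots in the treated groups, Gpx3 in banding at 30 weeks and in infarction at 9 weeks and Sod3 in infarction at 9 weeks, and 18 in the neonatal column.

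Taken group by group, calls were few. Infarction at 9 weeks had 2 (Gpx3, Sod3; 1.92% of all probe sets called) and banding at 30 weeks had 1 (Gpx3; 1.12%). No member was called by limma at 6, 12 or 16 weeks of banding, where 0.652%, 0.355% and 0.709% of all probe sets were. At an unadjusted p below 0.05 there were 5, 4 and 3 members in those groups, and 8 at 30 weeks, where 8.27%, 8.89%, 12.8% and 10.7% of all probe sets were at that level. Infarction at 3 weeks had no call (0.206% of all probe sets) and 2 members at that unadjusted level (4.58% of all probe sets), against 10 at 9 weeks (13.7%). The shunt had no call at 3 weeks (0% of all probe sets), at 8 weeks (0.0458%) or with both times pooled (0.0458%), with 3, 2 and 4 members at the unadjusted level (9.65%, 3.74% and 8.6% of all probe sets). Angiotensin II and Ditpa had none either (0% of all probe sets each), with 2 and 1 at the unadjusted level (3.49% and 3.2%).

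Of the superoxide dismutases, Sod3, the secreted enzyme of the extracellular space, was the one that moved in hypertrophy. In infarction at 9 weeks its 4 arrays read 3462, 2245, 2762 and 1689, against 1422 and 1341 in the shams. All 4 lay above both shams, and the effect was 0.83 ± 0.181 (1.78-fold, limma adjusted p = 0.0141). At 3 weeks the arrays read 2117, 2058, 1770 and 1875, again all above the shams at 1698 and 1514, but this difference was not called. With both times pooled Sod3 rose by 0.56 ± 0.128 (adjusted p = 0.0128). The 9-week call was lost without sham replicate 5 (adjusted p = 0.146), sham replicate 6 (0.133) or infarction replicate 1 (0.0628), and the pooled call without either of those shams (0.0557 and 0.0672) or 3-week sham replicate 2 (0.12). In fits of the compared groups alone neither was called (0.401 at 9 weeks, 0.134 pooled).

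Over all treated groups the effect on Sod3 was 0.22 ± 0.067 (adjusted p = 0.0458), with 22 of the 26 hypertrophic arrays above their own controls. The call was narrow: quantile normalization (adjusted p = 0.0636) or equal weight for the 5 models (0.673) ended it, as did 29 of the 46 fits that each left out 1 array. A second Sod3 probe set, dimmer on average, stood at 0.02 (adjusted p = 0.897) on average and at 0.37 (0.232) in infarction at 9 weeks. Sod1, the cytosolic enzyme, and Sod2, the mitochondrial one, were called in no hypertrophic group. Sod1 ranged from 6455 to 14030 on hypertrophic and from 5597 to 14147 on control arrays, and Sod2 from 2106 to 4689 and from 1975 to 4062.

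Catalase (Cat), which breaks down hydrogen peroxide in peroxisomes, was called in no comparison by its brightest probe set. Its lowest value was in infarction at 3 weeks, where 1 array read 1243 and the other 3 read 2528, 3002 and 2508, beside shams at 3442 and 2897. The 12-week banding shams read 6723 and 2609, the widest gap between arrays of 1 sham group for this gene.

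Gpx3, the secreted glutathione peroxidase of plasma and the extracellular space, had the largest change of the members in banding, in infarction and on average. In infarction at 9 weeks its arrays read 22739, 18558, 14962 and 13732, against 6833 and 8405 in the shams. At 3 weeks they read 16642, 15570, 16178 and 15866, against 10750 and 9277. In banding at 30 weeks the 4 arrays read 15347, 19987, 15141 and 12988, against 8580 and 10651. In these 3 groups every treated array lay above both shams. Of all probe sets 20.1%, 17.3% and 20.6% lay wholly above or wholly below the shams there.

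In the smaller surgical groups too every Gpx3 array lay above both shams. There 20% to 50.9% of all probe sets, by group, lay wholly above or wholly below. Banding for 6 weeks gave 15457 and 12863 (shams 10018 and 8119), for 12 weeks 12077 and 13520 (shams 7743 and 7868), and for 16 weeks 13051 and 10154 (shams 8847 and 9411). The shunt gave 13854 and 13384 at 3 weeks (shams 8721 and 10561) and 13535 and 13748 at 8 weeks (shams 9614 and 8921). All 22 surgical arrays were thus above the mean of their own shams. Gpx3 rose by 0.60 ± 0.0932 in banding (limma adjusted p = 5.37e-05) and by 0.93 ± 0.118 in infarction (adjusted p = 6.72e-06), while the shunt effect of 0.53 ± 0.136 was not called (adjusted p = 0.217).

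By single groups the effect on Gpx3 ran from 0.34 in banding at 16 weeks to 1.18 ± 0.167 in infarction at 9 weeks (2.26-fold, adjusted p = 7.42e-05). The banding effects at 6, 12 and 30 weeks were 0.64, 0.71 and 0.71, and the moderated F test of the 4 banding times called no member (0% of all probe sets), Gpx3 having an unadjusted p of 0.448 (limma). The call at 30 weeks was lost without sham replicate 5 (adjusted p = 0.695) or banding replicate 2 (0.106), and in a fit of its own 6 arrays alone (0.222). The average over all 10 groups was 0.48 ± 0.0616 (adjusted p = 3.43e-06). The calls in banding, in infarction and on average were kept in every alternative tried and in all 46 fits that each left out 1 array. The 9-week call was lost in a fit of its own 6 arrays alone (adjusted p = 0.212). A second Gpx3 probe set gave 0.60 in banding (adjusted p = 0.000723), 1.06 in infarction (2.2e-05), 1.61 in infarction at 9 weeks (6.62e-06) and 0.57 on average (4.28e-06).

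The hormone groups did not share the rise in Gpx3. Angiotensin II gave 12260 and 11249 and Ditpa 10253 and 10752, all 4 below their vehicle arrays at 12519 and 14071, for effects of -0.18 and -0.34 that were not called. After quantile normalization these effects were -0.13 and -0.24. Both vehicle arrays were themselves above all 16 sham arrays, which ran from 6833 to 10750. The mean of the 8 surgical effects exceeded the mean of the 2 hormone effects by 0.92 ± 0.179 for Gpx3 (limma adjusted p = 0.00965, where 0.32% of all probe sets were called), a comparison chosen after the values were seen. After quantile normalization it was 0.79 (adjusted p = 0.0189). Without vehicle replicate 1 it was 1.01 (adjusted p = 0.0661) and without replicate 2 it was 0.84 (adjusted p = 0.192), and the second probe set gave 0.68 (adjusted p = 0.25).

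**Figure D2:**
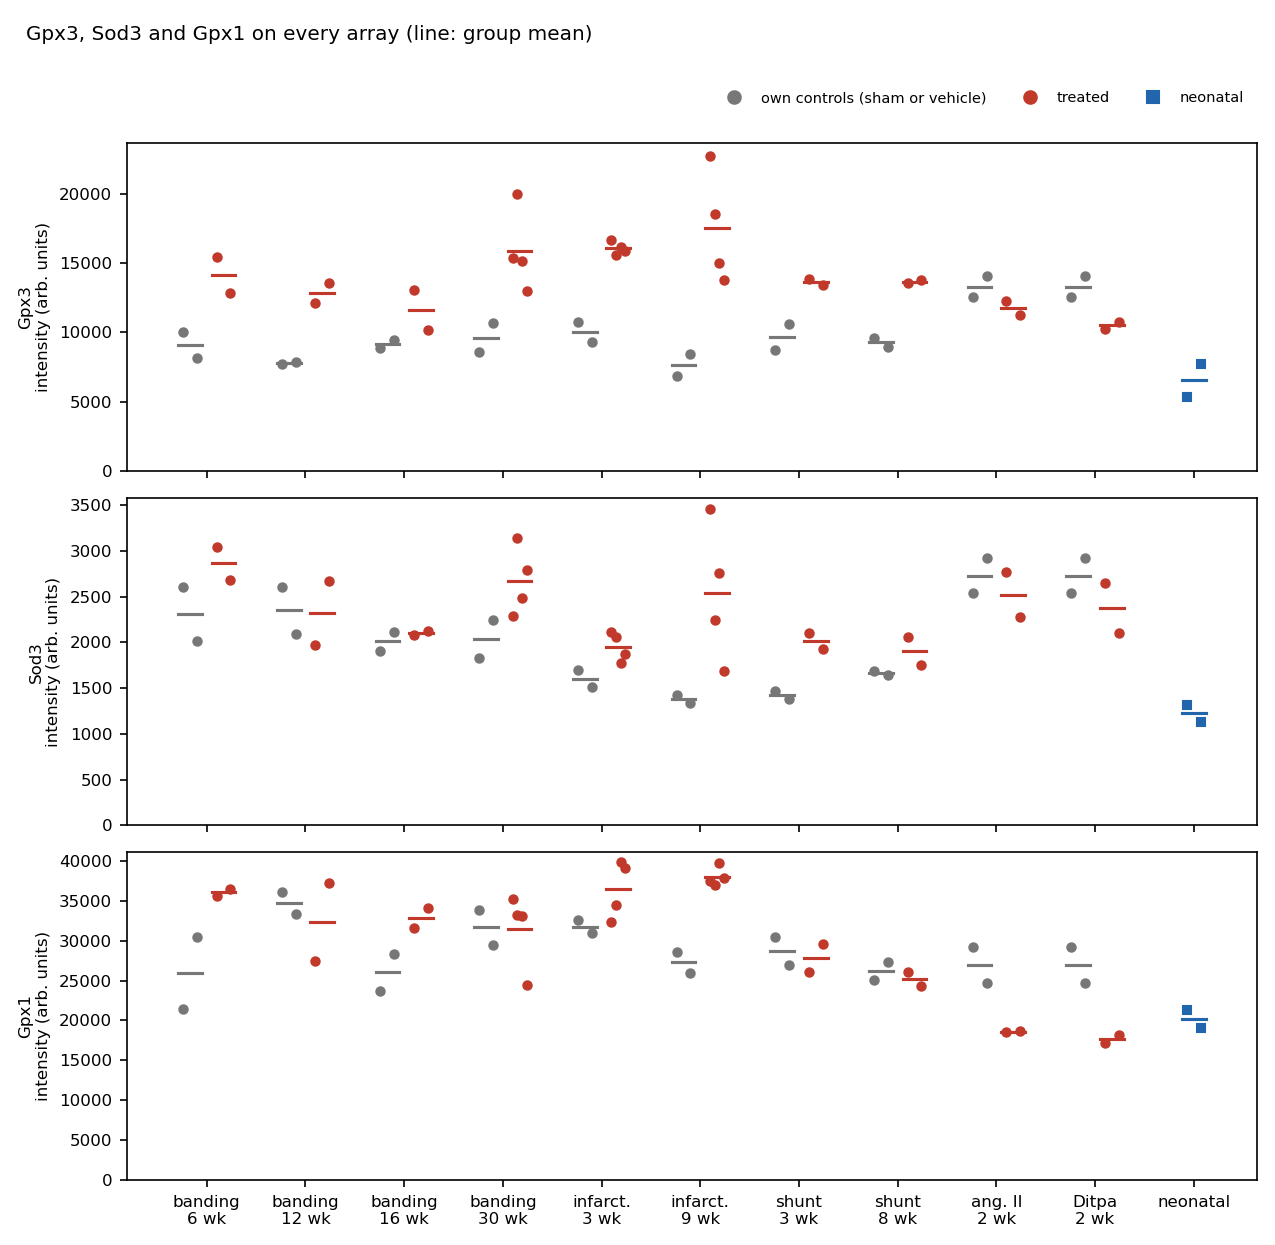
Intensity (arbitrary units, linear axis from 0) of Gpx3, Sod3 and Gpx1 on every array, by group, with group means as lines; the 2 vehicle arrays are drawn beside both hormones. Gpx3 lies above both shams in all 8 surgical groups and below the vehicle arrays in both hormone groups, Sod3 stands apart most in infarction at 9 weeks, and Gpx1 is lowest on the hormone-treated and neonatal arrays.

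Markers of other cells moved with these groups. Of 7 fibroblast markers, all measured, 5 were called higher in banding, in infarction and on average, and their summed intensity in infarction at 9 weeks was 51320 to 74692 against 47364 to 48750 in the shams. At 3 weeks it was 75878 to 99016 against 53603 to 56748. Such a sum weighs bright probe sets most. Dcn, which read 17143 to 49808 on hypertrophic arrays, was not called in infarction (0.27, limma adjusted p = 0.623). Of 7 measured macrophage markers, 2 were called higher in infarction and on average, Lyz2 and C1qb. In infarction Cd14, Csf1r and Cd74 were below 0 and C1qc and Aif1 above it, none called. Lyz2 alone reached 24456 on a hypertrophic array. The infarction array with the highest Gpx3 and Sod3, replicate 1 at 9 weeks, also had the highest macrophage sum, 47055 against 19095 to 24198 on the other 3. None of the 42 marker probe sets read 0 on any array. No marker of cardiomyocytes (8 measured), atrial myocytes (2), erythroid cells (6), endothelium (4), smooth muscle (4) or adipocytes (4) was called on average by limma. At an unadjusted p below 0.05 there were 1, 1, 2, 0, 3 and 0, where 15.9% of all probe sets were at that level. In pooled banding 1 smooth muscle marker, Tagln, was called higher at 0.31 (adjusted p = 0.00284). The part of these cells in the Gpx3 and Sod3 results was not tested, and in whole tissue a change in the number of cells of a type and a change in RNA per cell cannot be told apart.

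Gpx1, the cytosolic peroxidase, separated the hormone groups in the deposited values. Angiotensin II gave 18551 and 18665 and Ditpa 17125 and 18116, all below the vehicle arrays at 29207 and 24730, for effects of -0.53 (limma adjusted p = 0.471) and -0.61 (0.344). After quantile normalization these effects were -0.05 and -0.15. Its difference between surgical and hormone groups was 0.73 as deposited (adjusted p = 0.013) and 0.18 after quantile normalization (adjusted p = 1), so the call was lost there. In infarction at 9 weeks the arrays read 37510, 36993, 39668 and 37831, above shams at 28607 and 25987, and with both infarction times pooled the effect was 0.34 ± 0.0965 (adjusted p = 0.0621). After quantile normalization these effects were 0.26 at 9 weeks (0.48 as deposited) and 0.18 pooled (adjusted p = 0.0721).

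Gpx4, which reduces lipid peroxides in membranes, read 12565, 11288, 12610 and 11826 in infarction at 9 weeks, above shams at 6974 and 8167. The effect there was 0.68 ± 0.186, just short of a call (limma adjusted p = 0.0501). After quantile normalization the Gpx4 effect at 9 weeks was 0.54 (adjusted p = 0.0741). Its average effect of 0.19 ± 0.0686 was not called (adjusted p = 0.127). Gpx7, a peroxidase of the endoplasmic reticulum, was above the mean of its shams on 7 of 8 infarction arrays, with a pooled effect of 0.28 ± 0.11 (adjusted p = 0.257). Gpx2, the gastrointestinal form, and Gpx5 and Gpx6, known mainly from epididymis and olfactory tissue, were called in no hypertrophic comparison.

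In the thioredoxin group the changes went both ways. Txn2, the mitochondrial thioredoxin, read 4745 and 4996 after 6 weeks of banding (shams 7210 and 6156), 4626 and 7337 after 12 weeks (shams 8130 and 7897) and 4635 and 4829 after 16 weeks (shams 7238 and 8408). After 30 weeks it read 4728, 4464, 4778 and 5745, against 6541 and 7760. All 10 banding arrays were below both of their shams, and Txn2 fell by 0.54 ± 0.091 on the log2 scale (limma adjusted p = 0.000181).

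Outside banding Txn2 varied. In infarction at 9 weeks it read 5397, 4615, 5887 and 5270, below shams at 7143 and 6918, whereas at 3 weeks the shams themselves spread from 4412 to 6912 around the infarction arrays. Ditpa gave 9399 and 7372 beside vehicle arrays at 8148 and 6383. The average effect of -0.25 ± 0.0602 was called (adjusted p = 0.00914) but was -0.05 (adjusted p = 0.933) with the banding groups left out and -0.12 (0.782) with equal weight for the 5 models, and the call was lost without vehicle replicate 1 (0.0699). The differences between the 5 models were not called for any member by the F test, where 0.114% of all probe sets passed at a Bonferroni threshold. By that limma test 6 members had an unadjusted p below 0.05, as did 6.28% of all probe sets.

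Txnip, the thioredoxin-interacting protein that binds and inhibits thioredoxin, was also lower in banding. It read 10276 and 9693 after 6 weeks (shams 12020 and 13683), 10594 and 11640 after 12 weeks (shams 13059 and 13358) and 9322 and 11841 after 16 weeks (shams 13729 and 17204). At 30 weeks the 4 arrays, 13611, 12806, 8879 and 11535, overlapped the shams at 13422 and 12688. Txnip fell by 0.33 ± 0.0754 in banding (adjusted p = 0.00532) and by 0.21 ± 0.0499 on average (adjusted p = 0.00804). The banding call was lost with array weights (0.0601) or in a fit of the banding and sham arrays alone (0.0676). The second Txnip probe set gave -0.14 in banding (adjusted p = 0.284) and 0.01 on average (0.948), and equal weight for the 5 models (adjusted p = 0.133) or omission of the banding groups (0.54) ended the average call.

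Txnrd1, the cytosolic thioredoxin reductase and a classic Nrf2 target, was the third member that rose on average, by 0.29 ± 0.074 (limma adjusted p = 0.0134), with 21 of 26 arrays above their controls. Both hormones went with high readings, 2456 and 2135 for angiotensin II and 1909 and 2209 for Ditpa, against 1558 and 1546 for the vehicle. The shunt at 8 weeks went the other way, with 1334 and 1341 below shams at 1609 and 1573. A second Txnrd1 probe set gave 0.21 on average and was also called (adjusted p = 0.0157). The first call did not survive omission of the hormone groups (adjusted p = 0.0517), the banding groups (0.304) or the infarction groups (0.0553), or equal weight for the 5 models (0.0991), with effects of 0.25 to 0.32. Txnrd2, the mitochondrial reductase, and the thioredoxin-like genes Txnl1 and Txnl4b were not called in any comparison.

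**Figure D3:**
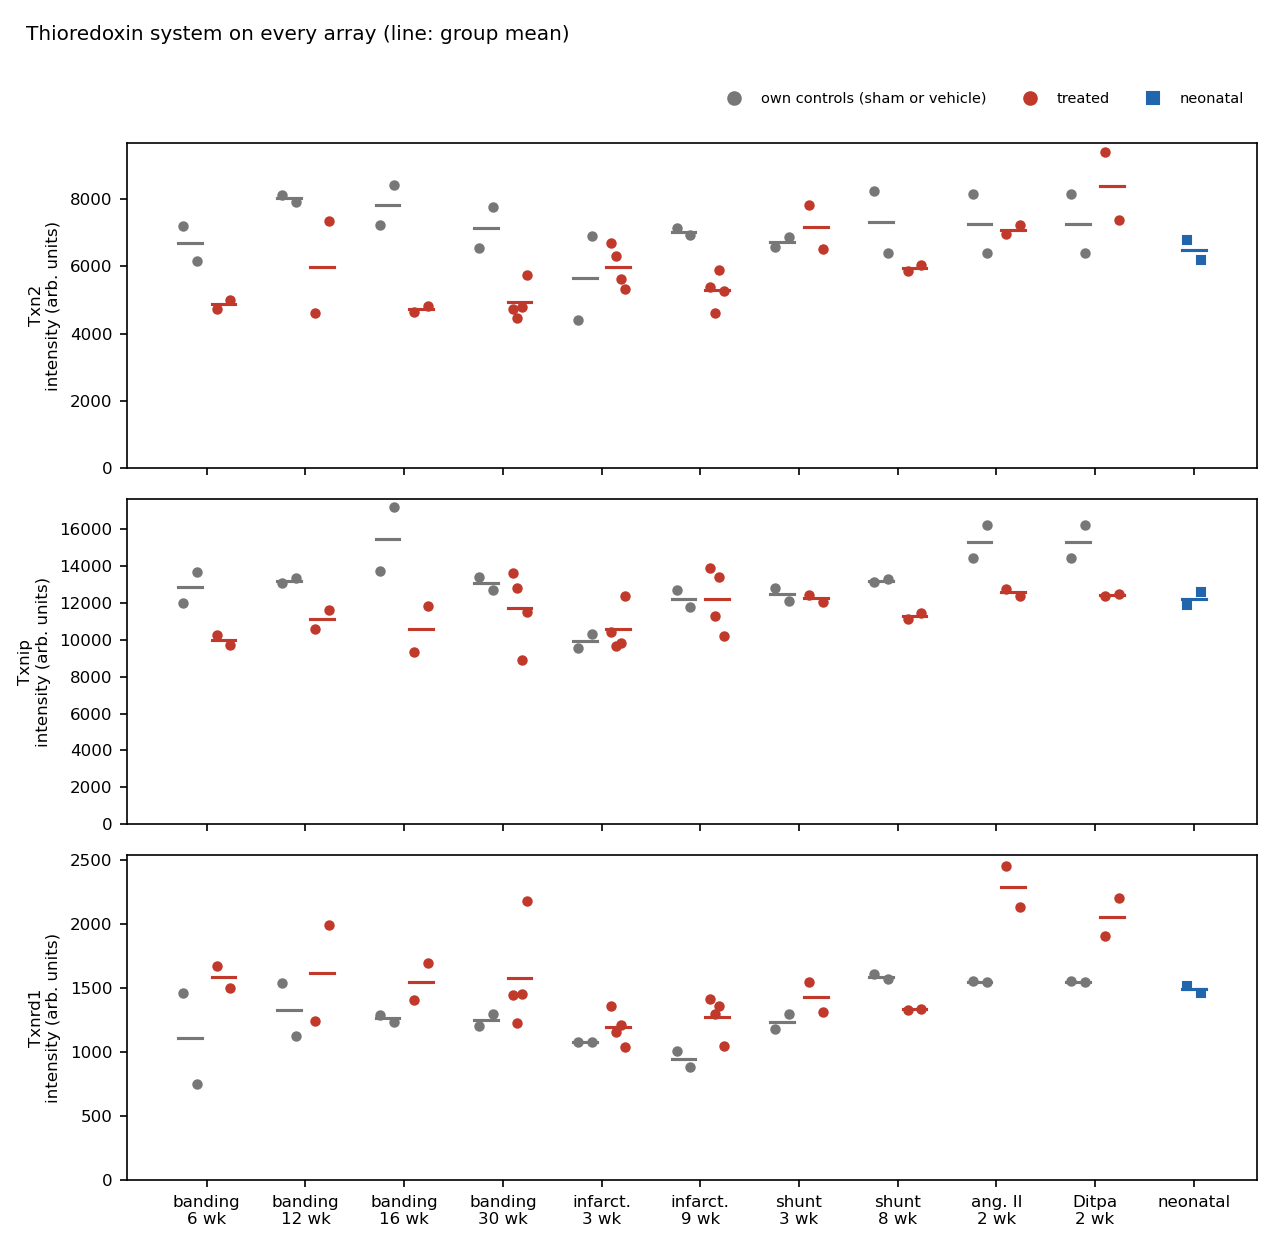
Intensity (arbitrary units, linear axis from 0) of Txn2, Txnip and Txnrd1 on every array, by group, with group means as lines and the 2 vehicle arrays drawn beside both hormones. All 10 banding arrays of Txn2 lie below their shams, Txnip is lower at 6, 12 and 16 weeks of banding and overlaps at 30 weeks, and Txnrd1 lies above the vehicle on all 4 hormone-treated arrays.

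No peroxiredoxin was called in a hypertrophic group. Prdx3, the mitochondrial peroxiredoxin that Txn2 serves, had 7 of 26 arrays above controls and an average effect of -0.13 ± 0.0579 (limma adjusted p = 0.273). Prdx1, Prdx2 and Prdx6 had average effects between 0.06 and 0.09, none called. The enzymes that make and recycle glutathione did not pass either. Gclc was above its controls on 7 of 26 arrays (effect -0.12 ± 0.0606, adjusted p = 0.356) and Gclm on 17, while Gss and Gsr were above on 16 and 19. Hmox1, the inducible heme oxygenase, was above its controls on 22 of 26 arrays by a small 0.10 ± 0.0458 (adjusted p = 0.293), and Hmox2, the constitutive form, on 10.

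Among the glutathione S-transferases, Gstm2 and Gstm7 of the mu class were called in hypertrophy, both lower in banding. Several probe sets of this family are marked by the array's design as shared between related transcripts, so close copies may not be told apart. Gstm2 read 3792 and 4970 after 12 weeks of banding (shams 6823 and 6014) and 4593, 5221, 5070 and 4301 after 30 weeks (shams 5715 and 5786), with no overlap at either time. Of all probe sets 20% and 20.6% did not overlap at those times either. At 6 weeks, 5650 and 5037 overlapped shams at 5692 and 5151. Over the banding groups Gstm2 fell by 0.28 ± 0.068 (limma adjusted p = 0.00871). That call was lost with array weights (0.056), in a fit of the banding and sham arrays alone (0.0782) or with the mean of its probe sets (0.0715). In the shunt at 3 weeks it went up instead, from 3937 and 3336 to 5300 and 5624, an effect of 0.59 that was not called (adjusted p = 0.0927).

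Gstm7 read 3420, 3695, 3365 and 3380 after 30 weeks of banding, against 4207 and 4640 in the shams. All 10 banding arrays were below the mean of their shams, and the pooled fall of 0.24 ± 0.071 was called narrowly (adjusted p = 0.0457). The call was lost in 30 of the 46 fits that each left out 1 array. It was also lost with array weights (0.175) and in a fit of the banding and sham arrays alone (0.148). Gstp1 was lower in banding at -0.21 ± 0.0684 without a call (adjusted p = 0.0772). Gsta1 was above its controls on 21 of 26 arrays, with an average of 0.12 ± 0.0563 (adjusted p = 0.261), while a dimmer probe set of the gene was called at 0.18 (adjusted p = 0.0293). The remaining transferases (Gsta3, Gsta4, Gstk1, Gstm1, Gstm5, Gsto1, Gstt1 and Gstt2) were called in no hypertrophic comparison.

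The study's methods name a rank sum test of the log2 ratios with a Bonferroni correction, without stating what the hypertrophic ratios were set against. Here the 26 hypertrophic ratios were set against the 18 control ratios, and 1.34% of all probe sets and no member passed. At an unadjusted p below 0.05 the test took in 12 of the 39 (30.8%), where 19.2% of all probe sets were. Gpx3 came nearest, with an exact rank sum p of 2.88e-05 (Bonferroni adjusted 0.251). On the surgical and sham arrays alone the exact test passed Gpx3 (Bonferroni adjusted p = 7.86e-07) and Sod3 (0.0263). Tested against 0 by an exact signed rank test, the ratios of Gpx3 also passed (Bonferroni adjusted p = 0.0229). In all these tests the ratios of a group share a control mean, and control ratios are taken to the mean of their own group. The ratios are therefore not independent, and the p-values can be too small. The share of all probe sets passing is given for the first test only.

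Comparisons between groups within a model called no member by limma. For infarction at 9 against 3 weeks 0% of all probe sets were called, for the shunt at 8 against 3 weeks 0%, and for angiotensin II against Ditpa 0.0114%. The members with an unadjusted p below 0.05 numbered 5, 1 and 0, where 5.82%, 4.6% and 1.12% of all probe sets were at that level. The 9-week minus 3-week difference of Gpx3 was thus not called, although the 9-week effect was the larger.

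The neonatal ventricle differed from the adult far more widely. Against the mean of the 9 adult control groups, 18 of the 39 members were called, 5 higher and 13 lower, where 32.6% of all probe sets were called (15.5% higher, 17% lower). The median effect was -0.15 over the members and -0.07 over all probe sets. In 11 members (28.2%) both neonatal arrays lay outside all 18 control arrays, as they did in 22.7% of all probe sets. Only 2 neonatal arrays were at hand: 6 members stayed called without neonatal replicate 1 and 10 without replicate 2, where the lone array is assumed to vary like the other groups, and the 2 called both times were Gstm5 and Gstm7.

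The 5 members called higher were Gstm5, Gclm, Gpx7, Prdx2 and Prdx1. Gstm5, a mu-class transferase, read 1704 and 1655 against 856 to 1464 in the controls (median 960), an effect of 0.78 ± 0.123 (limma adjusted p = 9.14e-06), and its second probe set gave 0.80. Gclm, the modifier subunit of glutamate-cysteine ligase, read 1251 and 930 against 657 to 884 (median 748), an effect of 0.50 (adjusted p = 0.000177). All 3 of its probe sets were called higher, the others at 0.78 and 1.30. Gclc, the catalytic subunit of the same enzyme, went the opposite way, with 470 below and 661 within the controls' 545 to 982 and an effect of -0.37 (adjusted p = 0.0421). Quantile normalization ended that call (-0.29, adjusted p = 0.138), as did centring array medians (0.0517) and array weights (0.054), and the effect was -0.12 (0.73) without neonatal replicate 1.

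Gpx7 read 1774 and 1525, above all controls at 927 to 1420, with an effect of 0.48 (adjusted p = 0.00575). Among the peroxiredoxins, Prdx1 and Prdx2 of the cytosol were higher and Prdx3 of the mitochondrion lower. Prdx2, abundant in red cells, read 15355 and 15320 against 7622 to 14467 (effect 0.48, adjusted p = 0.00925) and Prdx1 read 3964 and 4444 against 2462 to 4411 (effect 0.36, adjusted p = 0.0153). Prdx1 was no longer called after quantile normalization (0.24, adjusted p = 0.107) or against the vehicle and 3-week shams alone (0.104). Prdx3 read 7051 and 6529, below all controls at 7874 to 11627, with an effect of -0.55 (adjusted p = 0.00199), and its second probe set gave -0.73. Prdx6, which also acts on phospholipids, was lower by its brightest probe set at -0.34 (adjusted p = 0.0227), while its other 2 probe sets gave 0.03 and -0.10, neither called. After quantile normalization Prdx2 was at 0.38, Prdx3 at -0.72 and Prdx6 at -0.50, all still called.

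Of the dismutases, Sod3 was lowest relative to adult controls, with 1320 and 1132 below all controls at 1341 to 2921 and an effect of -0.63 ± 0.156 (limma adjusted p = 0.00205). Its second probe set gave -0.21 and was not called (adjusted p = 0.214). Sod2 read 1910 and 2144 against 1975 to 4062, an effect of -0.59 (adjusted p = 0.0147). Sod1 was at 0.01 (-0.16 after quantile normalization, neither called), with neonatal readings of 9124 and 11036 in the middle of the controls.

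Gpx3, which rose after surgery, was lower in the neonatal ventricle, at 5364 and 7729 against 6833 to 14071, with an effect of -0.54 ± 0.143 (adjusted p = 0.00402). After quantile normalization it was -0.72. Its second probe set gave -0.35, not called (adjusted p = 0.117). Gpx1 read 21349 and 19094, below all controls at 21400 to 36073, with an effect of -0.50 (adjusted p = 0.00127) that shrank to -0.18 (adjusted p = 0.0258) after quantile normalization. Gpx2 was at -0.32 (adjusted p = 0.0267). Catalase, at 2592 and 2756 against 2416 to 6723, had an effect of -0.43 ± 0.247 by its brightest probe set that was not called (adjusted p = 0.189), while its dimmest probe set was called at -0.54 (adjusted p = 0.0147).

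Among the transferases, Gsta1 read 814 and 948, below all controls at 1009 to 1582, with an effect of -0.57 (adjusted p = 0.00109). All 3 of its probe sets were called lower, the others at -0.44 and -1.04. Gstm7 read 2907 and 3004, with 17 of 18 controls above both (effect -0.46, adjusted p = 0.0015), and Gstk1, the mitochondrial and peroxisomal kappa-class form, read 3330 and 4073 below all controls (effect -0.38, adjusted p = 0.0017). Gsta3 and Gstm2 were lower at -0.45 and -0.29, the first call being lost after quantile normalization (adjusted p = 0.0757) and both against the vehicle and 3-week shams alone (0.176 and 0.423). Of the 4 mu-class members, Gstm5 was thus higher, Gstm2 and Gstm7 lower, and Gstm1 at -0.13 without a call, which was -0.25 and called (adjusted p = 0.0353) after quantile normalization. Gstt2 lay below all controls on both neonatal arrays at 1536 and 1745, with an uncalled effect of -0.23 (adjusted p = 0.0955).

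No thioredoxin-group member was called in the neonatal ventricle by its brightest probe set. Txn2, Txnip, Txnl4b and Txnrd2 had effects between -0.11 and -0.02. After quantile normalization Txn2 was at -0.30 and Txnip at -0.24, neither called (limma adjusted p = 0.0893 and 0.0797). Txnrd1 was at 0.27 (adjusted p = 0.244), while its second probe set was called at 0.51 (adjusted p = 0.00161). Over the 11 called members that have other probe sets, 15 of the 16 other probe sets went the same way and 8 of them were also called.

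**Figure D4:**
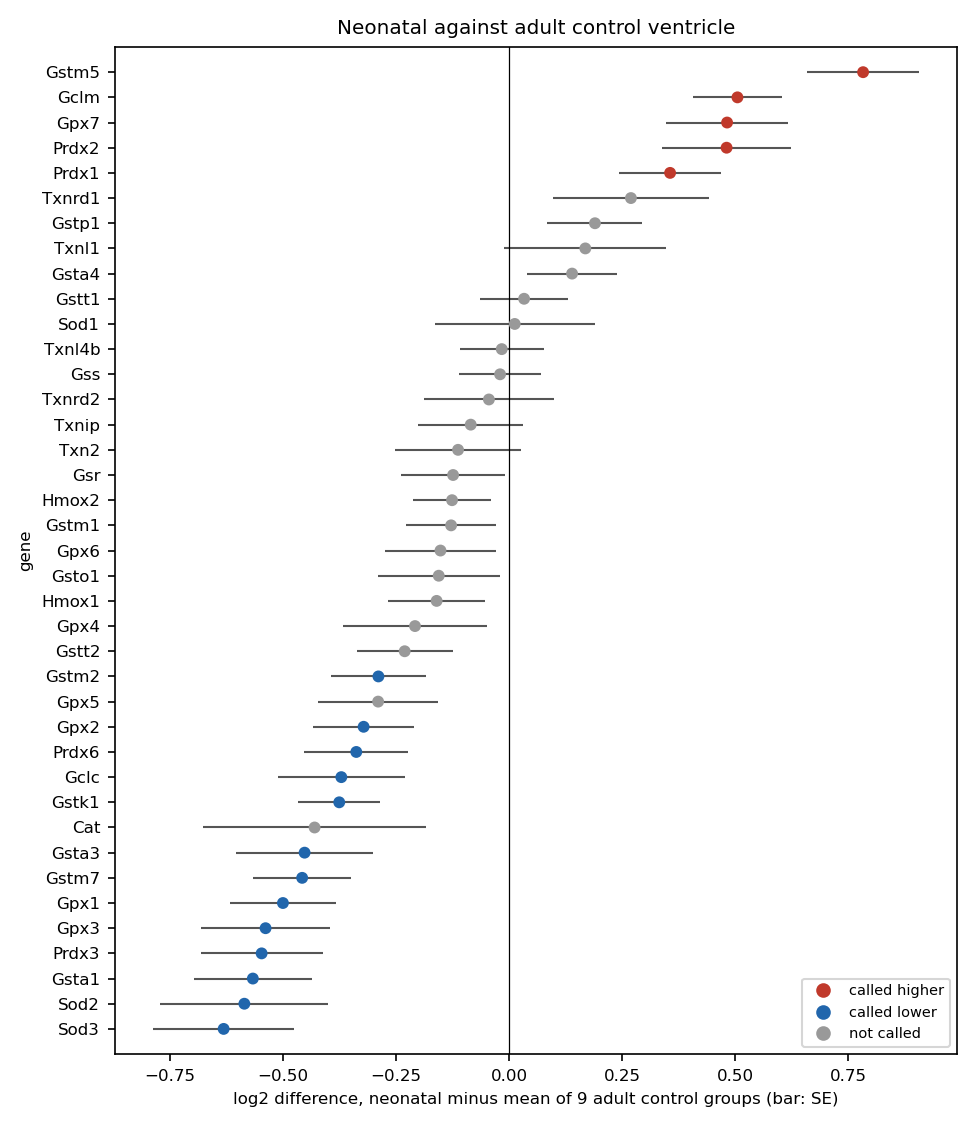
Log2 difference between the neonatal ventricle (2 arrays) and the mean of the 9 adult control groups (18 arrays) for each of the 39 members, ordered by size, with bars for the SE from limma. The 5 members called higher run from Prdx1 at 0.36 to Gstm5 at 0.78 and the 13 called lower from Gstm2 at -0.29 to Sod3 at -0.63.

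Cell markers differed too in this comparison. Of 8 measured cardiomyocyte markers 7 were called lower in the neonatal ventricle, with a summed intensity of 144043 to 176695 against 164157 to 333853 in the controls. These calls and sums are as deposited, where the bright end of the neonatal arrays was low. Tnni3 read 24499 to 30180 and Actc1 24495 to 30149 on those arrays, whose brightest probe sets reached 24526 and 30195. The part of this limit in the lower cardiomyocyte calls was not tested. Both measured genes of the atrial myocyte list, Myl7 at 1.12 and Myl4 at 3.35, were called higher. Their sum was 21646 to 24845 against 3258 to 8663. Whether they mark atrial cells in the neonatal ventricle was not tested. Of 7 fibroblast markers 4 were higher and 1 lower. The macrophage sum was 10759 to 13306 against 15639 to 26319. Of the 7 measured macrophage markers 2 were called lower, Cd74 at -1.87 and Lyz2 at -1.09. The other 5 were not called, with effects from -0.38 for C1qb to -0.05 for Csf1r. Of 6 erythroid markers 2 were called higher, Alas2 at 0.35 and Tfrc at 1.18. The globin markers Hbb and Hbb-b1 were lower without a call, at -0.36 and -0.32, and Hbe1 and Slc4a1 were at 0.02 and 0.06. The part of these cells in the members' neonatal differences was not tested.

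Genes that work beside the members were read from lists of their pathways. On average over the treated groups 3 of the 63 measured genes were called (4.76%), against 5.21% of all probe sets. None of 16 measured genes of glutathione use and turnover and none of 11 measured genes of Nrf2 and its other targets was called by limma. At an unadjusted p below 0.05 there were 2 and 2, where 15.9% of all probe sets were at that level. Of 7 genes that supply NADPH only Nnt fell, the mitochondrial transhydrogenase, at -0.33 (adjusted p = 0.00011). Of 15 sources of reactive oxygen only Maoa rose, at 0.64, and of 14 other redox genes only Cp, ceruloplasmin, at 0.16 (adjusted p = 0.0396).

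In pooled banding 5 of the 63 were called (7.94%, against 5.26% of all probe sets). Nnt was lower at -0.40 and Maoa higher at 0.83. The 5-oxoprolinase gene Oplah, which returns glutamate from glutathione breakdown, was lower at -0.38 (adjusted p = 0.00142), as was Cbr1 at -0.35, and the small Maf gene Mafk was higher at 0.43. In pooled infarction 2 were called, Maoa at 0.78 and Akr1a1 at 0.38, both higher, and in infarction at 9 weeks Selenow at 1.04 and Aldh2 at 0.70, both higher.

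In the neonatal ventricle 22 of the 63 were called (34.9%), near the 32.6% of all probe sets. Of the NADPH genes 1 was higher, the transketolase Tkt at 1.40, and 4 were lower, including malic enzyme Me1 at -1.003 and the mitochondrial isocitrate dehydrogenase Idh2 at -0.68. Of the glutathione genes 4 were lower, from Hpgds at -0.49 to Hagh at -0.27. Of the Nrf2 targets 2 were higher, Cbr1 at 1.07 and Akr1a1 at 0.71, and 2 lower, Ephx1 at -1.13 and Nqo1 at -0.42. Of the reactive oxygen sources 2 were higher and 3 lower, with Maoa at -3.68 and the xanthine dehydrogenase Xdh at -2.60 the largest. Of the other redox genes 2 were higher, led by the DNA repair gene Apex1 at 1.44, and 2 lower, led by the selenium carrier Selenop at -1.06.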

How the data were processed

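Per the labels and the study's methods, left ventricular RNA pools of male Wistar rats were hybridised to 46 RGU34A arrays, and the authors computed model-based intensity values in dChip (perfect-match probes, invariant-set normalization). The deposited intensity table of 8740 probe sets was raised to at least 16, put on the log2 scale and fitted in limma 3.58.1 (R 4.3.3) with 1 mean per group (20 groups, 26 residual degrees of freedom). Replicates are independent pools, and their number limits the precision. Gene symbols come from the platform annotation (7006 probe sets with 1 symbol, 308 with several, 1426 not listed) and can be old. By rule, values are given for members called in any comparison with controls and for central enzymes of each system, and up to 4 called genes per pathway list. Gpx4, Gstp1, Gstt2 and the pathway and marker genes named in banding and infarction were added after their values were seen. The members, gene lists and tests were chosen with earlier results of these data known, and the surgical-against-hormone comparison after the values were seen. Rank tests used scipy 1.17.1. Code was tested on simulated data. No array pair held identical values (35 within-group pairs correlated at 0.9649 to 0.9937). Alternatives covered quantile normalization, a filter on dim probe sets, the mean of a gene's probe sets, array weights, fits of single models, other weightings of the average and leaving out each array. Protein sequences were not used here.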

Additional observations from a re-analysis of the deposited data

Results flagged for a closer look

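Among 78 gene and group combinations with 4 arrays, 5 had 1 array set apart from the other 3 by more than Dixon's criterion, which chance alone exceeds in about 1 in 20 groups. In banding at 30 weeks Gpx1 read 24411 on replicate 4 against 33050 to 35163 on the others, Prdx3 read 8758 on replicate 2 against 10303 to 10564, and Prdx6 read 8718 on replicate 3 against 10723 to 10937. These are 3 different arrays. The brightest probe set reached 29923 on replicate 4, against 45752 to 51544 on the other 3 arrays of that group. In infarction at 3 weeks Gsr read 1379 on replicate 6 against 1340 to 1344, and Gstm7 read 3828 on replicate 4 against 3570 to 3582, both small steps above very tight values.

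The effect of surgery exceeded that of the hormones by 0.92 log2 for Gpx3 and by 0.73 for Gpx1 (limma, adjusted p = 0.00965 and 0.013). The Gpx1 difference was 0.18 after quantile normalization, and the hormone-treated arrays had the lowest bright ends of the series. Both differences rest on 2 vehicle arrays, and without vehicle replicate 1 neither was called.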

How the results depend on the processing

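No called effect of a member changed direction under an alternative, and Gpx3 in banding, in infarction and on average, and Txn2 in banding, stayed called in all of them. The number of members called moved as follows, with the cause not tested. The share of all probe sets called is not given for these alternatives or for the fits that left out 1 array. Whether a count moved more than that share was therefore not tested. After quantile normalization it was 1 for banding at 12 weeks, 1 at 16 weeks and 2 at 30 weeks, and 1 for surgery against hormones. It was then 6 for pooled banding, Gstp1 being gained (adjusted p = 0.0258), and 17 for the neonatal ventricle, where Gclc, Gsta3 and Prdx1 were lost and Gpx4 and Gstm1 gained. With the brighter probe sets alone, where fewer were tested, it was 1 for banding at 12 and 1 at 16 weeks, 1 for infarction at 3 weeks and 4 at 9 weeks. With the mean of a gene's probe sets it was 1 for banding at 6 and 1 at 16 weeks, and 3 for the average. With array weights it was 2 for banding at 16 and 2 at 30 weeks, 1 for infarction at 3 and 5 at 9 weeks, 1 for the shunt at 8 weeks, 2 for angiotensin II, 1 for Ditpa, 2 for pooled banding, 4 for pooled infarction and 2 for the differences between models. With fits of the compared groups alone, which have fewer arrays, it was 2 for banding at 16 and 0 at 30 weeks, 1 for infarction at 3 and 0 at 9 weeks, 2 for pooled banding and 1 for pooled infarction. The average had 1 call with the 5 models weighted equally, 1 without the banding groups and 3 without the infarction groups. The rank sum test passed 1 member as a signed rank test and 2 without the hormone arrays and their vehicle.

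Leaving out 1 array at a time gave 3 to 5 calls for the average (3 without vehicle replicate 1), 4 to 6 for pooled banding, 1 to 3 for pooled infarction (1 without 3-week sham replicate 2 or either 9-week sham) and 6 to 18 for the neonatal ventricle. By group it gave 0 to 1 for banding at 6 weeks, 0 to 2 at 12 weeks (2 without banding replicate 2), 0 to 1 at 16 weeks and 0 to 1 at 30 weeks, 0 to 1 for infarction at 3 weeks and 1 to 4 at 9 weeks (4 without either 12-week banding array or 30-week banding replicate 4), 0 to 1 for the shunt at 3 weeks, 0 to 2 for surgery against hormones and 0 to 1 for the rank sum test, which passed Gpx3 without angiotensin II replicate 2 or either Ditpa array. With the adult controls limited to the vehicle and the earliest shams, 14 members were called in the neonatal ventricle.

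With the replicate number of the hormone study as a replicate block, angiotensin II and Ditpa had 0 and 0 members called, as without it. Same-numbered arrays did not deviate together (correlations of -0.0834, -0.0433 and -0.0638), so the numbers were not taken as pairs.

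With 2 to 4 arrays per group, an effect that misses the threshold is not shown to be absent. Uncalled effects near 0 can turn with the normalization, as those of Sod1 and Txnl4b did in the neonatal ventricle. Values of bright probe sets such as Gpx1 depend on the normalization in the hormone, neonatal, infarction and banding groups. At 6 weeks of banding the Gpx1 effect was 0.50 as deposited and 0.03 after quantile normalization. In pooled banding it was 0.18 and 0.03.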
